A study of Mus musculus with 6 samples.

Results

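The 10 genes described here encode the kinases and kinase partners that turn an upstream signal into NF-kB activity: Ikbkb, Chuk and Ikbkg (the IKK complex), Map3k7, Tab1, Tab2 and Tab3 (the TAK1 complex), Map3k14 (NIK), and Tbk1 and Ikbke (the IKK-related kinases). They were chosen by symbol, and all 10 were found among the 55571 gene entries of the count table and were among the 13594 genes with enough counts to be tested. RNA was sequenced from E0771 cells, a line derived from a mouse mammary carcinoma. In such bulk samples, fewer cells with a transcript and less of it per cell cannot be told apart. In 3 libraries the cells expressed a vector control, and in 3 they expressed wild-type Malt1 (Malt1-WT). Both groups were sampled at basal condition, without a stimulus. The labels give neither the vector, its promoter, nor whether each line was a clone or a pool, and do not state whether replicates are separate cultures. The p-values thus cover the spread between these samples alone, and that spread could be technical.

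In the canonical pathway, MALT1 and BCL10 recruit the ubiquitin ligase TRAF6, whose ubiquitin chains are bound by TAB2 and TAB3 on the TAK1 complex and by NEMO (the product of Ikbkg) on the IKK complex. TAK1 phosphorylates IKK-beta (Ikbkb), which then phosphorylates IkB proteins so that they are degraded and NF-kB can enter the nucleus. In the non-canonical pathway NIK activates IKK-alpha (Chuk), which leads to processing of the Nfkb2 product, and TBK1 and IKK-epsilon (Ikbke) phosphorylate interferon regulatory factors downstream of nucleic acid sensors and Toll-like receptors. These kinases are mainly controlled at the level of protein modification, which was not measured here.

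Total counts were 17601656 to 20543778 per library, and the members had from 288 counts (Ikbke) to 4996 counts (Tab2) in a library. Malt1 lay at 28.5 to 31.1 CPM (TMM-scaled counts relative to library size) in the vector libraries and at 297 to 309 CPM in the Malt1-WT libraries, so the libraries matched their labels. Of the epithelial markers, Krt8 was present (68.6 ± 2.31 CPM in vector cells, 59.7 ± 1.83 CPM in Malt1-WT cells, SD, n = 3) and Epcam was at 6.31 ± 0.319 and 6.23 ± 1.01 CPM, while Krt18, Krt19 and Cdh1 were below 1 CPM in both groups. The 5 epithelial markers summed to 73.1 to 77.5 CPM in the vector libraries and 64 to 69.7 CPM in Malt1-WT. Of the fibroblast markers, Pdgfra was at 161 ± 4.88 CPM in vector cells and 116 ± 6.24 CPM in Malt1-WT cells. In the same order, Col1a1 was at 20.1 ± 1.19 and 10.9 ± 1.57 CPM. Dcn was at 16.7 ± 1.27 and 15.7 ± 1.14 CPM, while Col1a2 and Lum were below 1 CPM in both groups. The 7 leukocyte markers summed to 3.38 to 5.35 CPM in the vector libraries and 2.18 to 2.51 CPM in Malt1-WT, with Tyrobp at 0 in every library. The 5 fibroblast markers summed to 195 to 207 and 138 to 150 CPM, and the 4 endothelial markers to 4.58 to 5.84 and 10.3 to 10.8 CPM. Among leukocyte markers, Lyz2 went from 3.78 ± 0.859 CPM in vector cells to 0.741 ± 0.4 CPM in Malt1-WT cells. Among endothelial markers, Pecam1 went from 4.77 ± 0.778 to 9.69 ± 0.231 CPM. The remaining leukocyte and endothelial markers were below 1 CPM in both groups. The part of these markers in the results was not tested.

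The upstream sequences of 3 members are shown because these genes span the responses described next: Ikbke, which rose most among the members, its closest relative Tbk1, which rose slightly, and Map3k7, whose level did not pass the test. They are the bases just before the RefSeq transcription start (GRCm38.p6), leaving out any that lie inside the GENCODE gene, written 5′ to 3′ on the strand of the gene. The Ikbke stretch is chr1:131279607-131279813 (minus strand), that of Tbk1 is chr10:121586795-121587044 (minus strand) and that of Map3k7 is chr4:31963857-31964096 (plus strand). Capitals mark the match to the kappa B consensus, the motif bound by NF-kB dimers.
Ikbke: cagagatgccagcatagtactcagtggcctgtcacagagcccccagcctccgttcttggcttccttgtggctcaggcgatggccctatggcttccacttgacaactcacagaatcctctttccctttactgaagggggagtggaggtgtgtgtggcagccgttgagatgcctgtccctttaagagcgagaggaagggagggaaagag
Tbk1: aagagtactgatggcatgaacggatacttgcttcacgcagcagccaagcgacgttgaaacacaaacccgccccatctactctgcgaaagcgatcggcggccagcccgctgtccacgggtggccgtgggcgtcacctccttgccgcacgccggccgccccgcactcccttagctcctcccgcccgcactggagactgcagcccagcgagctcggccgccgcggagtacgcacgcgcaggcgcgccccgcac
Map3k7: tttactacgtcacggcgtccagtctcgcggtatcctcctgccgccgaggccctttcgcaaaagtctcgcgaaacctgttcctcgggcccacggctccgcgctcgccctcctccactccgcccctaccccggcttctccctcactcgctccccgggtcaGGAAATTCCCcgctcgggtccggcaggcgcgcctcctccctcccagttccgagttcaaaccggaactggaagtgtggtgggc
RefSeq windows of 300 bases (250 before to 50 after the start) were found for 8 of the 10 members, 12 windows in all. On both strands, the kappa B consensus matched 1 of the 12, that of Map3k7, where GGGAATTTCC lies on the strand opposite to the gene. Read along the gene strand, as in the capitals above, the match begins 92 bases before the RefSeq start. This motif is found in 8.46% of all 32851 windows. The core of the interferon-stimulated response element, searched as a pair of GAAA words separated by 2 bases on either strand, was in none of the 12 windows and in 3.44% of all windows. These matches describe letters in a short window and show no binding.

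Ikbke, which encodes IKK-epsilon, an inducible kinase, rose 3.31-fold in Malt1-WT. Its level was 15.9, 19.3 and 15.4 CPM in vector replicates 1 to 3 and 58.1, 54.2 and 55.6 CPM in Malt1-WT replicates 1 to 3. The groups were far apart, and vector replicate 2 was the highest of its group. On the log2 scale this was a change of 1.73 (SE 0.0703, adjusted p = 2.06e-27 in the edgeR quasi-likelihood test), and 5.27% of all tested genes had a larger absolute change. Ikbke (ENSMUSG00000042349, chromosome 1, 131254343 to 131279606, minus strand, GRCm38) shares 65 exon bases with the antisense gene Gm28913, which also rose, from 38 to 40 counts per vector library to 143 to 163 per Malt1-WT library (log2 fold change 2.09, edgeR adjusted p = 7.66e-16). A second antisense gene, Gm28914, shares 159 exon bases with it and had 0 counts in the vector libraries and at most 2 in a Malt1-WT library. No source used here gives the strand setting of the counting, so reads of Ikbke and Gm28913 cannot be told apart in the shared bases.

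Tbk1, the related kinase that most cells express constitutively, rose 1.27-fold. It was at 106, 102 and 99.9 CPM in the vector libraries and 127, 132 and 131 CPM in Malt1-WT. The groups did not overlap, and the log2 fold change was 0.34 (SE 0.0389, edgeR adjusted p = 8.10e-11). Tbk1 (ENSMUSG00000020115) lies on chromosome 10 (121546455 to 121586787, minus strand), with no annotated gene overlapping it.

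**Figure D1:**
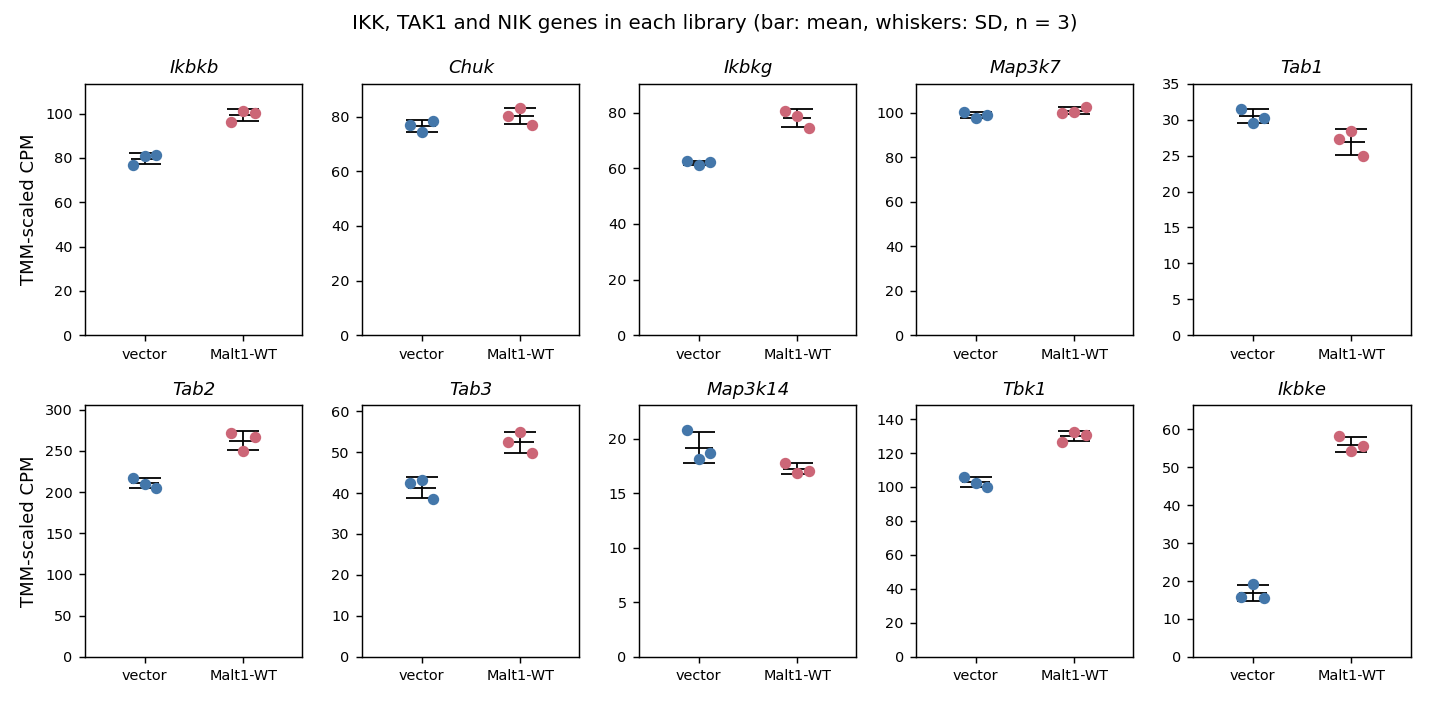
Expression of the 10 genes in each library, as TMM-scaled CPM on axes that start at 0 (blue points, vector control; red points, Malt1-WT; black bars, mean and SD, n = 3). Ikbke shows the widest gap between the groups, from at most 19.3 to at least 54.2 CPM, while the points of Chuk and Map3k7 overlap.

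Of the IKK subunits, Ikbkb and Ikbkg rose and Chuk did not pass the test. Ikbkb, the catalytic subunit that drives canonical signalling, rose 1.25-fold, from 76.9, 80.8 and 81.3 CPM in the vector libraries to 96.3, 101 and 100 CPM in Malt1-WT (log2 fold change 0.32, SE 0.0425, edgeR adjusted p = 5.70e-09). Every Malt1-WT library lay above every vector library. Ikbkg, the ubiquitin-binding regulatory subunit, rose 1.26-fold, from 62.5, 61.0 and 62.2 CPM to 80.7, 79.0 and 74.6 CPM (log2 fold change 0.34, SE 0.0467, edgeR adjusted p = 1.44e-08), again without overlap. Chuk, the other catalytic subunit and the target of NIK, was at 76.9, 74.4 and 78.6 CPM in the vector libraries and 80.4, 83.3 and 77.1 CPM in Malt1-WT. Its groups overlapped, and its log2 difference of 0.07 did not pass (95% interval -0.02 to 0.16, edgeR adjusted p = 0.185).

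Ikbkb lies on chromosome 8 (ENSMUSG00000031537, 22659212 to 22706589, minus strand), Chuk on chromosome 19 (ENSMUSG00000025199, 44073335 to 44107480, minus strand) and Ikbkg on the X chromosome (ENSMUSG00000004221, 74393290 to 74453854, plus strand). Ikbkg shares 418 exon bases with G6pdx on the other strand. G6pdx, which encodes glucose-6-phosphate dehydrogenase, had 3522 to 3917 counts per vector library and 5272 to 6166 per Malt1-WT library (log2 fold change 0.67, edgeR adjusted p = 5.87e-25). Its share in the Ikbkg counts was not tested.

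In the TAK1 complex the ubiquitin-binding subunits rose while the kinase itself did not pass the test. Tab2, the most abundant member, was at 217, 210 and 205 CPM in the vector libraries and 271, 249 and 266 CPM in Malt1-WT. The groups did not overlap, and the log2 fold change was 0.32 (SE 0.0339, edgeR adjusted p = 1.26e-11), a 1.25-fold rise. Tab3, its homologue, went from 42.3, 43.2 and 38.5 CPM to 52.4, 55.0 and 49.7 CPM, a 1.27-fold rise (log2 fold change 0.34, SE 0.0578, edgeR adjusted p = 1.01e-06), also without overlap.

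Map3k7, which encodes the TAK1 kinase, was at 100.2, 97.8 and 98.8 CPM in the vector libraries and 99.8, 100.5 and 103 CPM in Malt1-WT. The groups overlapped, and the log2 difference of 0.03 did not pass (95% interval -0.05 to 0.11, edgeR adjusted p = 0.544). Tab1, which binds TAK1 and promotes its autophosphorylation, fell by 0.18 on the log2 scale (SE 0.0697, edgeR adjusted p = 0.0268), from 31.5, 29.6 and 30.3 CPM to 27.4, 28.5 and 24.9 CPM. Its groups did not overlap, but the gap is narrow, from 28.5 to 29.6 CPM. The call was lost without vector replicate 1 (adjusted p = 0.0747), without Malt1-WT replicate 3 (0.146) and with DESeq2 (0.062), and over all 13 alternatives the adjusted p went from 0.00159 to 0.146.

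Map3k7 lies on chromosome 4 (ENSMUSG00000028284, 31964097 to 32023467, plus strand), Tab1 on chromosome 15 (ENSMUSG00000022414, 80133127 to 80161707, plus strand), Tab2 on chromosome 10 (ENSMUSG00000015755, 7905653 to 7956230, minus strand) and Tab3 on the X chromosome (ENSMUSG00000035476, 85574022 to 85634469, plus strand). Transcripts of Gm8188 hold 4.36% of the 50-base words of Map3k7, but Gm8188 had at most 3 counts in any library.

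Map3k14, which encodes NIK and is best known for regulation by constant degradation of its protein, was at 20.8, 18.1 and 18.6 CPM in the vector libraries and 17.8, 16.9 and 17.1 CPM in Malt1-WT. Every Malt1-WT library lay below every vector library, yet the log2 difference of -0.15 did not pass (95% interval -0.32 to 0.02, edgeR adjusted p = 0.123). It passed with library size only as scaling (-0.23, adjusted p = 0.0184), and over the 13 alternatives the adjusted p went from 0.0184 to 0.387. Map3k14 lies on chromosome 11 (ENSMUSG00000020941, 103219762 to 103267472, minus strand) and shares 135 exon bases with 1700028N14Rik, which had at most 3 counts in a library.

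In all, 6 of the 10 genes were higher, 1 was lower and 3 did not pass. Over all tested genes, 61.2% were called in either direction, 31.0% as higher and 30.2% as lower, so the 7 of 10 called lies near the background. The median log2 fold change was 0.32 over the 10 genes and -0.003 over all tested genes, while the median absolute change was 0.32 and 0.31. The groups did not overlap for 8 members (6 higher, 2 lower), against 64.4% of all tested genes (32.4% higher, 32.0% lower). The 5 rises other than that of Ikbke fell in a narrow range, 1.25-fold to 1.27-fold, and 45.9% to 48.8% of tested genes had a larger absolute change than these.

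Because small differences pass the test in these libraries, the genes were also tested against a 1.2-fold change (glmTreat in edgeR), which 35.1% of all tested genes passed (19.3% higher, 15.8% lower). Of the members 3 passed as higher and 0 as lower. Ikbke passed (adjusted p = 2.93e-25), as did Tbk1 (0.0209) and, just below the threshold, Tab2 (0.04998). Ikbkg (0.0508), Tab3 (0.0717) and Ikbkb (0.0857) did not. Ikbke passed under each of the 12 alternatives run for this test, while the other members passing changed between them. With upper quartile scaling, library size only, no filter on low counts or without vector replicate 3, Ikbke alone passed, and the adjusted p of Tbk1 was then 0.0562, 0.456, 0.0831 and 0.101. In the authors' deposited table, whose t statistic is 0 below a 2-fold change, Ikbke had a log2 fold change of 1.72 and an adjusted p of 0.0165. The other 9 members had an adjusted p of 1 there. A share of 1.13% of its 55571 genes had an adjusted p under 0.05 there. Unlike the other shares, this one also counts genes with too few counts to be among the 13594 tested here.

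**Figure D2:**
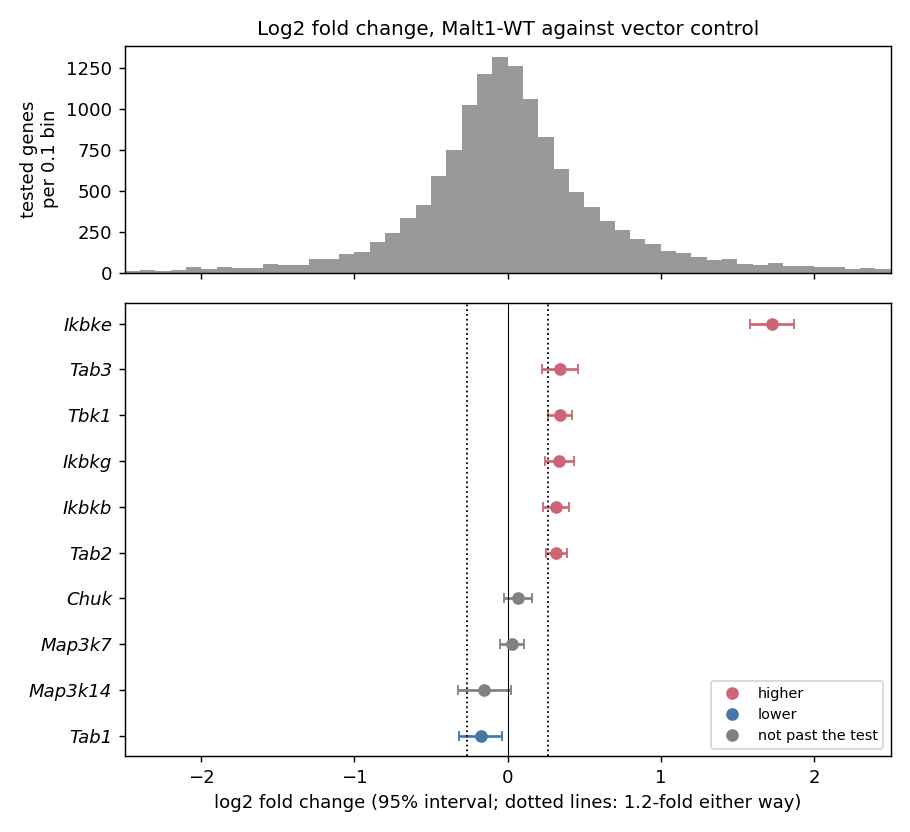
Log2 fold changes of all tested genes (upper panel, genes per bin of 0.1, drawn between -2.5 and 2.5) and of the 10 members with 95% intervals (lower panel; red, higher; blue, lower; grey, not past the test; dotted lines, 1.2-fold). Ikbke at 1.73 stands apart, 5 members sit together at 0.32 to 0.34, and the interval of Tab1 ends just below 0.

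Ratios of counts within a library do not depend on how libraries are scaled, and 5 were compared. With 3 libraries against 3, the exact two-sided permutation test cannot give a p below 0.1, so none could pass. The log2 ratio of Ikbke to Tbk1 counts was -2.74, -2.41 and -2.70 in the vector libraries and -1.12, -1.29 and -1.23 in Malt1-WT, a shift of 1.40 toward Ikbke (exact p = 0.1, adjusted p = 0.125 over 5 ratios). The ratio of Ikbkb to Chuk counts was 0, 0.12 and 0.05 against 0.26, 0.28 and 0.38, a shift of 0.25 toward Ikbkb with the same p. These groups did not overlap for either ratio. Among single tested genes, 64.4% had groups that did not overlap, and no such share was computed for ratios.

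The ratio of Map3k7 to Tab1 counts shifted by 0.21, from 1.70 ± 0.028 to 1.91 ± 0.117 (SD, n = 3, exact p = 0.1), and that of Ikbkg to the summed counts of Ikbkb and Chuk by 0.13, from -1.34 ± 0.032 to -1.202 ± 0.063 (SD, n = 3, exact p = 0.1). Groups were again apart. The ratio of Tab2 to Tab3 counts differed by -0.03, with 2.35 ± 0.066 in the vector control and 2.33 ± 0.127 in Malt1-WT (SD, n = 3, exact p = 0.9), and its groups overlapped.

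**Figure D3:**
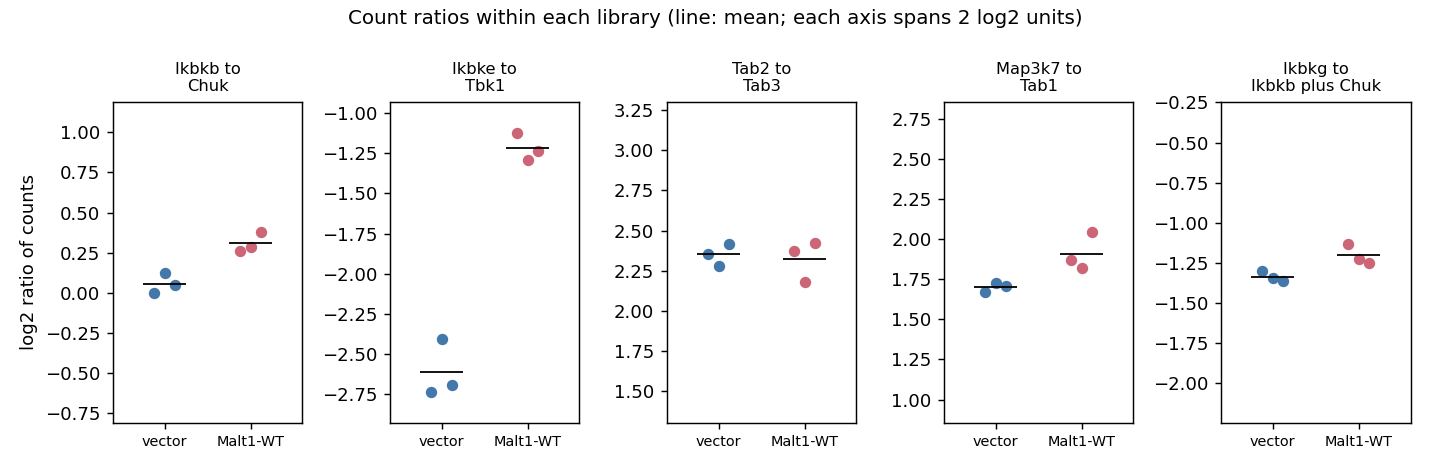
Log2 ratios of counts between partner genes in each library (blue, vector control; red, Malt1-WT; lines, means of 3 libraries; the axes start at different values and each spans 2 log2 units). The Ikbke to Tbk1 ratio moves furthest, by 1.40, and the Tab2 to Tab3 ratio of both groups overlaps.

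Levels of different genes can be compared only per length, here as CPM per kilobase. With the union of all annotated exons as length, the order in the vector control was Tab2 (34.3 ± 0.964, SD, n = 3), Tbk1 (26.3 ± 0.761), Map3k7 (15.4 ± 0.185), Chuk (15.1 ± 0.418), Tab1 (9.07 ± 0.288), Ikbkg (7.63 ± 0.0947), Tab3 (6.23 ± 0.376), Ikbkb (4.18 ± 0.126), Map3k14 (2.93 ± 0.213) and Ikbke (1.87 ± 0.235). Among neighbours in that order, Map3k7 and Chuk had overlapping libraries. In Malt1-WT, Ikbke stood at 6.20 ± 0.222 (SD, n = 3), above Ikbkb (5.21 ± 0.139) and Map3k14 (2.63 ± 0.0732). There the libraries of Chuk and Map3k7 overlapped, as did those of Tab1 and Tab3.

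This order depends on the length used. The exons annotated for Ikbkb cover 19078 bases in all, while its longest protein-coding transcript has 3977 bases, and for Ikbke the lengths are 9018 and 3251 bases. Per kilobase of the longest protein-coding transcript, a choice made after the data were seen, Ikbkb was at 20.0 ± 0.604 in the vector control and 25 ± 0.669 in Malt1-WT (SD, n = 3), beside Chuk at 21.9 ± 0.607 and 22.9 ± 0.877. On this scale Ikbkb was just below Chuk in the vector control and just above it in Malt1-WT, without overlapping libraries in either group. Ikbke went from 5.19 ± 0.651 (SD, n = 3), where its libraries overlapped those of Map3k14 (4.52 ± 0.328), to 17.2 ± 0.616, where they overlapped those of Map3k7 (17.5 ± 0.246). Tab2 and Tbk1 were the highest in both groups by either length.

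**Figure D4:**
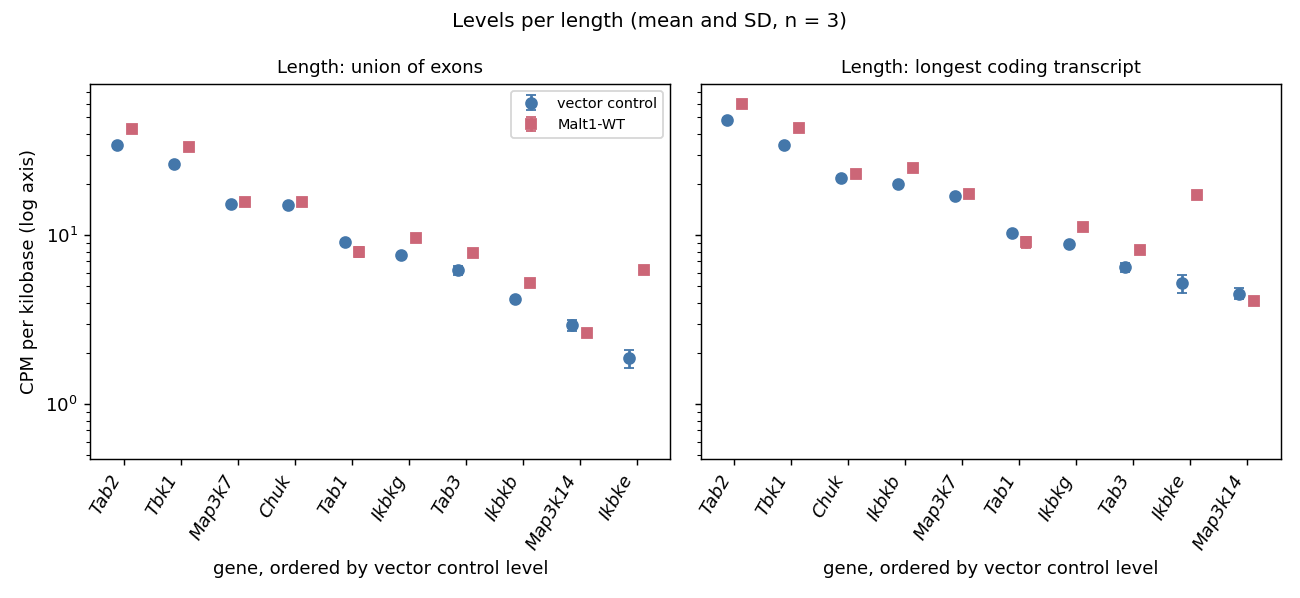
Levels per kilobase on a log axis, by the union of exons (left) and by the longest protein-coding transcript (right), as means with SD over 3 libraries (blue circles, vector control; red squares, Malt1-WT). Ikbkb moves from 4.18 to 20.0 CPM per kilobase in the vector control when the length changes, while Tab2 and Tbk1 stay on top.

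The genes that act directly before, beside and after these kinases were read from 8 lists chosen by role. Among 14 adaptors and ubiquitin ligases upstream of TAK1 and IKK, 8 were higher, 1 was lower and 5 did not pass, against 61.2% of all tested genes called (31.0% higher and 30.2% lower). Their median log2 fold change was 0.25. The introduced Malt1 is 1 of these 14 genes and 1 of the 8 higher, so its call was fixed by the design. Besides the introduced Malt1 (3.34), the ubiquitin ligase gene Traf6 rose from 60.6 ± 4.26 to 143 ± 1.68 CPM (SD, n = 3, log2 fold change 1.24) and its partner Bcl10 from 71.5 ± 3.84 to 155 ± 1.71 CPM (1.11). The ubiquitin-conjugating enzyme gene Ube2n, named after its value was seen, was the lower member (-0.15). The median over all tested genes was -0.003.

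Around NIK, 5 of 7 genes of its turnover complex and of receptors that use it were higher, 0 were lower and 2 did not pass (median 0.49), where 61.2% of all tested genes were called and 31.0% were higher. The receptor gene Cd40 rose from 10 ± 1.05 to 64.3 ± 3.6 CPM (SD, n = 3, log2 fold change 2.67), and Birc3 and Birc2, which encode ubiquitin ligases that act on NIK, by 2.62 and 0.51 on the log2 scale. Of 12 tested adaptors, sensors and substrates of TBK1 and IKK-epsilon, 7 were higher, 1 was lower and 4 did not pass (median 0.28), beside the same 61.2% called, 31.0% higher and 30.2% lower, over all tested genes. The autophagy receptor genes Sqstm1 (1.64, from 755 ± 12.1 to 2360 ± 31.4 CPM, SD, n = 3) and Optn (1.06) rose most, followed by the interferon regulatory factor gene Irf7 (0.96). The lower member was Mavs (-0.39), the adaptor of RNA sensors, also named after its value was seen.

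All 8 genes of IkB proteins and Rel subunits, the substrates and effectors of IKK, were higher (median 1.27), against 31.0% higher and 61.2% called in either direction over all tested genes. Nfkbie rose by 2.10 on the log2 scale, Nfkbib by 1.71 and Nfkb2, whose product is processed after NIK and IKK-alpha act, by 1.57, from 112 ± 3.64 to 332 ± 1.5 CPM (SD, n = 3). Each of these 8 log2 fold changes, the smallest of which was that of Rela (0.90), was above those of the 9 kinase genes other than Ikbke. Several of these genes are known NF-kB targets, and the list is not independent of the earlier results of these data.

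Of 11 tested MAP kinase kinases and MAP kinases downstream of TAK1, 6 were higher, 2 were lower and 3 did not pass (median 0.16), beside a background of 61.2% called, 31.0% higher and 30.2% lower. Map2k6 (0.86), the JNK gene Mapk8 (0.80) and Nlk (0.38) rose, while the p38 gene Mapk14 and its activator Map2k3, named after their values were seen, both fell, by 0.36 on the log2 scale. Among 12 other MAP3K genes tested, 6 were higher, 3 were lower and 3 did not pass (median 0.11), beside the same background of 61.2%, 31.0% and 30.2%. Map3k8, whose product Tpl2 is held by the Nfkb1 precursor protein, rose by 0.87, Map3k13 rose by 0.72, and Map3k12 fell by 0.54 on the log2 scale.

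Of 9 negative regulators of IKK and TAK1, 6 were higher, 1 was lower and 2 did not pass (median 0.18), where 61.2% of all tested genes were called, 31.0% as higher and 30.2% as lower. Against a 1.2-fold change, 2 of these 9 passed as higher and 0 as lower, beside 19.3% and 15.8% of all tested genes. In the other lists, the higher and lower counts were 4 and 0 of 14 upstream genes, with the introduced Malt1 among these 4. Around NIK the counts were 4 and 0 of 7. They were 5 and 1 of 12 around TBK1 and IKK-epsilon, and 8 and 0 of 8 IkB and Rel genes. For the MAP kinase list they were 3 and 2 of 11, for other MAP3K genes 3 and 1 of 12, and for chaperones 0 and 0 of 4. The A20 gene Tnfaip3 rose from 32.1 ± 0.794 to 244 ± 2.86 CPM (SD, n = 3, log2 fold change 2.92) and its binding partner gene Tnip1 by 1.75 on the log2 scale, while Otulin, which encodes a deubiquitinase of linear chains, fell by 0.34. Of the 4 chaperone and accessory genes, 3 passed the plain test, beside 61.2% of all tested genes. Hsp90aa1 (0.08) and Hsp90ab1 (0.065) were slightly higher, Erc1 was lower (-0.18) and Cdc37 (-0.04) did not pass. The rises of both Hsp90 genes were lost with library size only as scaling. Pseudogene copies can share reads with the Hsp90 genes.

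**Figure D5:**
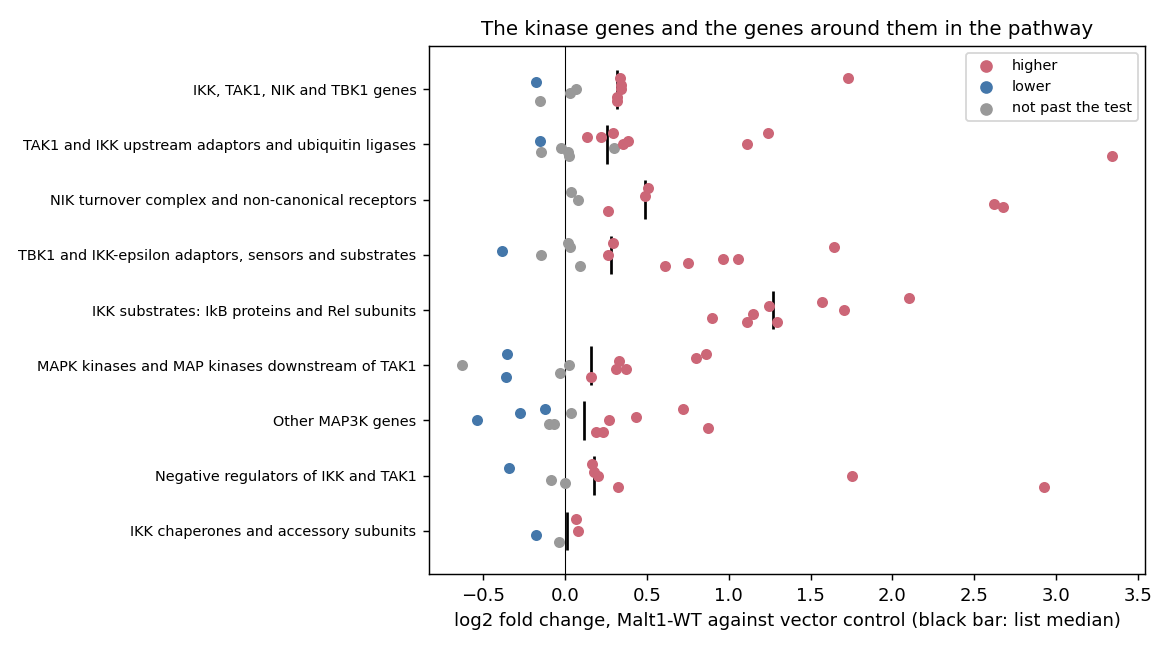
Log2 fold changes of the 10 kinase and partner genes (top) and of the tested genes of the 8 lists around them (points, genes; red, higher; blue, lower; grey, not past the test; black bars, medians). The IkB and Rel genes all lie at 0.90 or above, while the kinase genes other than Ikbke lie between -0.18 and 0.34.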

How the data were processed

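The series holds 6 RNA-seq libraries of E0771 cells, 3 per group. Groups and replicate numbers were taken from the sample titles. Per the labels' protocols, libraries were made with a directional kit, and per the submitters' processing notes Trim Galore 0.6.0, STAR 2.7.3a and featureCounts 1.6.3 were used with GRCm38.p6 (mm10). Neither the annotation nor the strand setting of the counting was stated (not given in the sources used here). The authors deposited raw counts per gene symbol, together with the log2 fold change, the mean log2 expression, a t statistic (a score per gene) and the p-values of their own comparison, per the file headers.

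Genes were kept by filterByExpr (minimum count 10), scaled by TMM and tested in edgeR 4.0.16 (R 4.3.3) with the robust quasi-likelihood test on group alone. The p-values were adjusted by Benjamini-Hochberg over all 13594 tested genes, and a gene was called at an adjusted p under 0.05. SE is the size of the log2 fold change divided by the square root of F. DESeq2 1.42.0, other scalings, no filter, a replicate block, the fit without the robust option and leaving out each library were the alternatives. The comparison of Malt1-WT with vector control was also tested on simulated data (13378 genes tested). There, 50 genes each were changed 1.2-fold, 1.5-fold, 2-fold and 4-fold. Of genes changed 1.2-fold 54% were recovered, and of those changed 1.5-fold 72%, with 10 false calls. Far fewer genes were changed there than the 61.2% called in the libraries, so these rates need not hold for the main fit.

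The members and lists were chosen with earlier results of these data known. Beside the members and Malt1, up to 3 called genes with the largest change were named per list, plus exceptions named after their values were seen. Positions, lengths and overlaps come from GENCODE M21 (GRCm38), which may differ from the annotation used for counting, and overlaps were checked for the members only. Promoter windows are from RefSeq (GRCm38.p6). Protein sequences were not used here. Within each group, libraries differed beyond sampling noise (chi-square per degree of freedom 2.13 to 2.87), so all 6 libraries were kept.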

Additional observations from a re-analysis of the deposited data

How the results depend on the processing

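The call and direction of Ikbke, Tbk1, Tab2, Tab3, Ikbkb and Ikbkg were the same under all 13 alternatives. With library size only, the sign changed for Chuk (-0.007, adjusted p = 0.901) and Map3k7 (-0.047, adjusted p = 0.318), neither of which passed in any setting; 2 members were then lower, 1 passed the test against 1.2-fold, and the median of all tested genes moved to -0.079. Members passing against 1.2-fold also numbered 1 with upper quartile scaling and with no filter on low counts, and 1 to 3 with a library left out, the value of 1 being without vector replicate 3. With DESeq2, 0 members were lower, and 0 to 1 were with a library left out.

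Among the lists, 2 upstream genes, 2 negative regulators and 2 chaperone genes were lower with library size only, which left 0 chaperone genes higher; 2 negative regulators were lower with upper quartile scaling, and 1 chaperone gene was higher with no filter. With a library left out, 1 to 2 negative regulators were lower and 1 to 2 chaperone genes higher. Smaller moves were also seen. Of the negative regulators, 5 instead of 6 were higher with upper quartile scaling, library size only, no filter, DESeq2 and the replicate block. The same held without vector replicate 2 or 3 and without Malt1-WT replicate 2 or 3. With library size only, 5 other MAP3K genes were higher and 4 lower, and 5 of the MAP kinase list were higher and 3 lower. Further list counts also moved in some settings. The Tab2 to Tab3 ratio difference ranged from -0.074 to 0.046 with a library left out and changed sign without vector replicate 3 (0.006) or Malt1-WT replicate 2 (0.046). Of the 10 members, 4 kept their rank in the vector control and 4 in Malt1-WT with the longest annotated transcript as length, and 2 and 3 with the longest protein-coding transcript, which follows from the changed lengths. Other than for the order, the cause of these moves was not tested.

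Deviations of same-numbered libraries correlated at -0.026, -0.021 and 0.017, and not every library correlated best with its own number. These values do not settle whether libraries of the same number were handled together. With the replicate number as a block, 6 members were higher and 1 was lower, as without it, 4134 genes in all were higher and 4034 lower (4210 and 4110 without the block), and 2 members instead of 3 passed against 1.2-fold. At this depth, the 95% intervals allow log2 changes of up to 0.16 for Chuk and 0.11 for Map3k7.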
